A study of Mus musculus with 4 samples.

Results

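The genes described here mark the lymphocytes that a mouse islet preparation can hold: Cd3d, Cd3e, Cd3g, Cd4 and Cd8a of T cells, Cd79a, Cd79b and Ms4a1 of B cells, and Nkg7 of natural killer (NK) and other cytotoxic cells. They were taken as a named list, and every array probe whose accession belongs to one of them was used. All 9 genes were found, out of 22911 gene symbols on the array, and they were read by 13 probes. Cd3d, Cd3e, Cd4 and Cd8a had 2 probes each.

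The arrays measured RNA of isolated mouse islets, the endocrine clusters of the pancreas, in 2 groups of 2 mice, with 1 array per mouse. The titles call one group wild type, but by genotype it is Pdx1-Cre. The other, called Rb-deficient, is Pdx1-Cre:Rbf/f, so that every mouse carried the Cre transgene and floxed Rb alleles set the groups apart. Age, sex and strain are not given in the labels. The Pdx1 promoter drives Cre in the pancreatic lineage, and blood-derived cells lie outside that lineage. In RNA of whole islets, fewer cells of a type and less RNA per cell cannot be told apart.

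CD3 gamma, delta and epsilon chains carry the signal of the T cell antigen receptor into the cell, and the co-receptors CD4 and CD8 bind the major histocompatibility molecules that show the antigen. CD79A and CD79B do for the B cell receptor what CD3 does for the T cell receptor, and Ms4a1 encodes CD20 on the B cell surface. Islets of healthy mice hold resident macrophages and few lymphocytes, whereas lymphocytes fill islets in autoimmune diabetes.

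Cd3d, Cd3e and Cd3g lie close together on chromosome 9, and the windows of 250 bases before the start of these genes are shown. They were picked because Cd3d and Cd3e had the tested probes on which the groups did not overlap, 2 of 6. Both were lower in Rb-deficient islets. Of all 33845 probes tested, 21.3% lay below in this way and 14.8% above. On the brighter Cd3e probe the groups overlapped, so non-overlap is only the reason for the choice and not a result about these genes. The sequences are from RefSeq, build GRCm38.p6, written 5′ to 3′ on the strand of the gene. Capitals mark the letters CAGGTG on either strand, a form of the E box that basic helix-loop-helix factors such as the E proteins bind. The windows are chr9:44981536-44981785 on the plus strand for Cd3d, chr9:45009612-45009861 on the minus strand for Cd3e and chr9:44980432-44980681 on the minus strand for Cd3g.
Cd3d: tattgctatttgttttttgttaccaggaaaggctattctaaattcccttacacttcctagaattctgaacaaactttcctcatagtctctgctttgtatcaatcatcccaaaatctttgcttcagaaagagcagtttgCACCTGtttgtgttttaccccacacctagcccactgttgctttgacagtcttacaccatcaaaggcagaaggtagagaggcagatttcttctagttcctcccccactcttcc
Cd3e: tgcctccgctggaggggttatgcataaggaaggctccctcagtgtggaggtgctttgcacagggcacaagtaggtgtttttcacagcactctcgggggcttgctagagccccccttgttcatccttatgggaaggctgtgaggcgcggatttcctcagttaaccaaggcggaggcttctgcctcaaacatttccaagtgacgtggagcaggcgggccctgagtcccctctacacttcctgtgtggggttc
Cd3g: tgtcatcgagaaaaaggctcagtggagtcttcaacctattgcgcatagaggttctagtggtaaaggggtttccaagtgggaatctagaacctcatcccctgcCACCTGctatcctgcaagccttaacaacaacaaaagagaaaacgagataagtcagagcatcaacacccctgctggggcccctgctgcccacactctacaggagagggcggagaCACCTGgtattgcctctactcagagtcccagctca

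The E box letters stood 112 bases before the start of Cd3d, and 148 and 35 bases before the start of Cd3g, and were not in the Cd3e window. RefSeq windows were at hand for 6 of the 9 genes (also Cd79a, Cd8a and Nkg7), and 3 of the 6 held the letters, the third being Cd79a at 154 bases before its start. Of all 27025 windows of this length, 17.1% held them. None of the 6 held TATAAA, found in 13.0% of all windows, or any of the E2F letters TTTCCCGC, TTTGGCGC, TTTCGCGC and TTTGCCGC, found in 1.91%. The motifs were chosen after the sequences were seen, and a match describes the letters and not a bound site.

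Signals are given as log2 of the processed intensity minus the 75th percentile of the same array, so that 0 stands for that percentile. Levels of different probes cannot be compared, because each probe binds its target with its own efficiency. The scanner software marks a probe as well above background or not on each array, and the dimmest probes so marked lay between -5.46 and -5.21 on this scale. A gene was tested where a probe of it was marked on both arrays of 1 or both groups, and the brightest such probe stood for the gene.

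Wild type 1 stood apart from the other 3 arrays. On it 76.5% of probes were well above background, against 59.0% to 59.9% on the others, and 8101 probes were marked on that array alone. Odour, pheromone and taste receptor genes, 1380 genes of the sensory organs, were marked in 38.6% of cases on wild type 1 and in 13.4% to 14.7% on the others. Probes of 4 of 4 Y-linked genes were marked on wild type 1 and none on the other arrays, while Xist lay at -7.40 there and between -1.35 and -0.65 elsewhere. These are the signals of a male mouse on wild type 1 and of female mice on the other arrays. Sex was thus mixed in the wild type group and not in the Rb-deficient group, and its part in the differences was not tested. Rb1, the floxed gene, lay at 0.28 and 0.86 in wild type and at -0.48 and -0.90 in Rb-deficient islets, a difference of -1.26 (limma adjusted p = 0.735). Differences of single genes below are therefore given with and without wild type 1, and without it they rest on 1 wild type array. Rb1 itself differed by -1.55 without wild type 1.

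Most lymphocyte genes gave weak signals. Of the 13 probes, 6 were well above background on all 4 arrays, 5 on some and 2 on none. By array, 10 of 13 were marked on wild type 1, 6 on wild type 2, 7 on Rb-deficient 1 and 9 on Rb-deficient 2. At least 1 probe was marked for 8 of 9 genes on wild type 1, 5 on wild type 2, 5 on Rb-deficient 1 and 7 on Rb-deficient 2. Of the 9 genes, 5 could be tested (Cd3d, Cd3e, Cd4, Cd79b and Ms4a1).

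**Figure D1:**
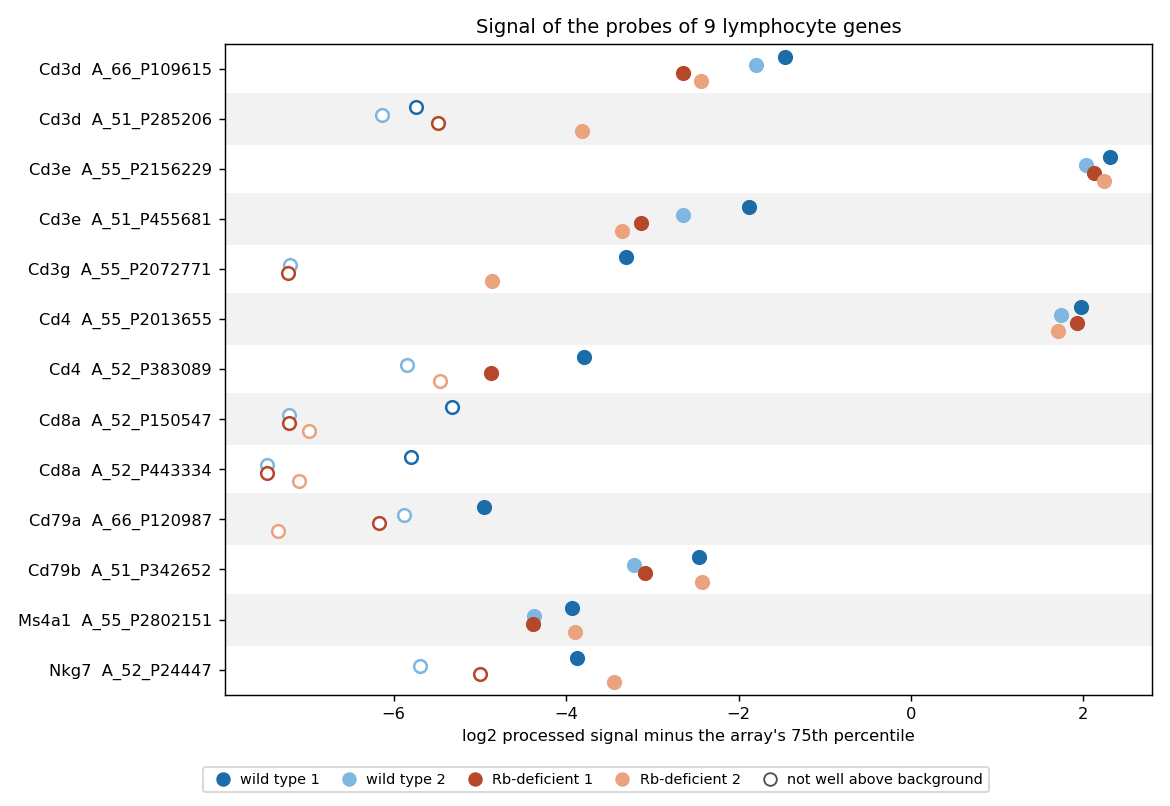
Signal of each probe of the 9 lymphocyte genes on each array, in log2 units relative to the 75th percentile of that array. Open circles are not well above background. The brightest probes of Cd3e and Cd4 lie near 2 on all arrays, the first probe of Cd3d and the second of Cd3e are lower on both Rb-deficient arrays, and several dim probes are highest on wild type 1.

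None of the 5 tested genes differed between Rb-deficient and wild type islets at an adjusted p under 0.05 (limma with Benjamini-Hochberg adjustment over 26378 genes). No other gene on the array did either, so the share called was 0%, and 1493 genes had an unadjusted p under 0.05, of which 390 were higher and 1103 lower in Rb-deficient islets. Of the lymphocyte genes, 1 had an unadjusted p under 0.05, Cd3d. Both Rb-deficient arrays lay below both wild type arrays for 1 of the 5 tested genes and above them for 0, while 20.7% of all genes tested lay below and 15.3% above. Tested probe by probe, 2 of the 6 tested probes lay below and 0 above, against 21.3% and 14.8% of 33845 probes. In that fit 0 of the 6 and 0% of all probes were called, and 1894 probes had an unadjusted p under 0.05. The median difference of the brightest probes of all 9 genes was -0.036, and that of all 45611 genes without a filter on dim probes was -0.24.

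Cd3d encodes the delta chain of CD3. Its brighter probe, A_66_P109615, gave -1.46 and -1.79 in wild type and -2.64 and -2.44 in Rb-deficient islets, well above background on all 4 arrays. Both Rb-deficient values were lower than both wild type values, with a gap of 0.64 between the groups. The wild type mean was -1.63 ± 0.24 (SD, n = 2) and the Rb-deficient mean -2.54 ± 0.15 (SD, n = 2). Rb-deficient islets were thus 1.88-fold lower (log2 difference -0.91, standard error 0.22), which did not pass the adjustment (limma adjusted p = 0.730). It was -0.75 without wild type 1, and between -1.08 and -0.48 under all alternatives. Because the groups did not overlap on this probe, leaving out an array could not change the sign of the difference.

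The second Cd3d probe, A_51_P285206, was too dim for the test. It gave -5.75 and -6.14 in wild type and -5.49 and -3.82 in Rb-deficient islets, and only Rb-deficient 2 was well above background. The difference of 1.29 rested on that array. It was 0.45 without Rb-deficient 2, 1.48 without wild type 1 and 0.17 with normexp background correction, so no fold is given and the probe gives no direction for Cd3d.

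Cd3e encodes the epsilon chain. Its brighter probe, A_55_P2156229, gave 2.31 and 2.03 in wild type and 2.13 and 2.24 in Rb-deficient islets. The Rb-deficient values lay between the wild type values, and the means differed by 0.0090 (standard error 0.20, limma adjusted p = 0.994), or by 0.15 without wild type 1. The second probe, A_51_P455681, gave -1.88 and -2.64 in wild type and -3.13 and -3.35 in Rb-deficient islets, well above background on all arrays. Here both Rb-deficient values were below both wild type values, with a gap of 0.48. On the second probe Rb-deficient islets were 1.96-fold lower (log2 difference -0.97, standard error 0.33, limma adjusted p = 0.863 over all probes), and the difference was -0.59 without wild type 1. The groups therefore overlapped on the brighter Cd3e probe and did not on the dimmer one. The mean signals of the 2 probes lay 4.93 apart for Cd3e and 6.83 apart for Cd4. The median range was 2.44 over 7899 genes with several probes, and 15.9% and 5.28% of them had as wide a range. Probe sequences were not used here, and whether the brighter Cd3e and Cd4 probes also read other transcripts was not tested.

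Cd3g, the gamma chain, was read by 1 probe, A_55_P2072771, and was too dim for the test. It gave -3.30 and -7.20 in wild type and -7.23 and -4.86 in Rb-deficient islets, with wild type 1 and Rb-deficient 2 well above background. The arrays of each group spanned more than the groups differed. The difference was -0.79 with wild type 1 and 1.16 without it.

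The co-receptor genes showed no separation. The brighter Cd4 probe, A_55_P2013655, gave 1.97 and 1.74 in wild type and 1.93 and 1.71 in Rb-deficient islets, a difference of -0.036 (standard error 0.20, limma adjusted p = 0.974). The groups overlapped, and without wild type 1 the difference was 0.076. The second Cd4 probe, A_52_P383089, gave -3.79 and -5.84 in wild type and -4.87 and -5.46 in Rb-deficient islets, with the first array of each group well above background. Its difference was -0.35, and 0.68 without wild type 1.

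Cd8a, the alpha chain of CD8 on cytotoxic T cells, was not well above background on any array with either probe. Probe A_52_P150547 gave -5.33 and -7.21 in wild type and -7.21 and -6.98 in Rb-deficient islets. Probe A_52_P443334 gave -5.79 and -7.47 in wild type and -7.47 and -7.10 in Rb-deficient islets. On both probes wild type 1 was the highest array, and no fold is given because no array measured the gene.

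Of the B cell receptor genes, Cd79a was dim and Cd79b was measured on all arrays. The Cd79a probe, A_66_P120987, gave -4.96 and -5.88 in wild type and -6.17 and -7.34 in Rb-deficient islets, and only wild type 1 was well above background. Both Rb-deficient values were the lower ones, but neither was a measured signal, and no fold is given because the wild type mean was itself under the mean of the lowest signals marked on the Rb-deficient arrays. The difference in measured means was -1.34, and -0.88 without wild type 1. The Cd79b probe, A_51_P342652, gave -2.46 and -3.21 in wild type and -3.08 and -2.43 in Rb-deficient islets. The groups overlapped, with a difference of 0.081 (standard error 0.40, limma adjusted p = 0.968), and 0.45 without wild type 1.

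Ms4a1, encoding CD20, gave -3.93 and -4.37 in wild type and -4.38 and -3.90 in Rb-deficient islets on probe A_55_P2802151, well above background on all arrays. Wild type 1 and Rb-deficient 2 were the higher arrays, so the groups overlapped. The means differed by 0.012 (standard error 0.29, limma adjusted p = 0.995), or by 0.23 without wild type 1.

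Nkg7, a granule protein of NK cells and cytotoxic T cells, was read by probe A_52_P24447. It gave -3.87 and -5.69 in wild type and -5.00 and -3.45 in Rb-deficient islets, with wild type 1 and Rb-deficient 2 well above background. The groups overlapped and the probe was not tested. The difference was 0.56, and 1.47 without wild type 1. It was -0.35 without wild type 2 and -0.22 without Rb-deficient 2, so the probe gives no direction for Nkg7.

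Over all 13 probes, 5 were higher and 8 lower in the Rb-deficient mean, with a median difference of -0.35. Without wild type 1, 10 were higher and 3 lower, with a median of 0.18. The probes lower in both settings were the brighter Cd3d probe, the second Cd3e probe and Cd79a. On each of them the groups did not overlap, so leaving out wild type 1 could not bring the difference above 0. For Cd79a neither Rb-deficient array was well above background. Over all 56598 probes the median was -0.22 with wild type 1 and -0.097 without it, and the share higher in Rb-deficient islets was 28.9% and 39.8%. The part of the wider detection on wild type 1 in these differences was not tested.

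**Figure D2:**
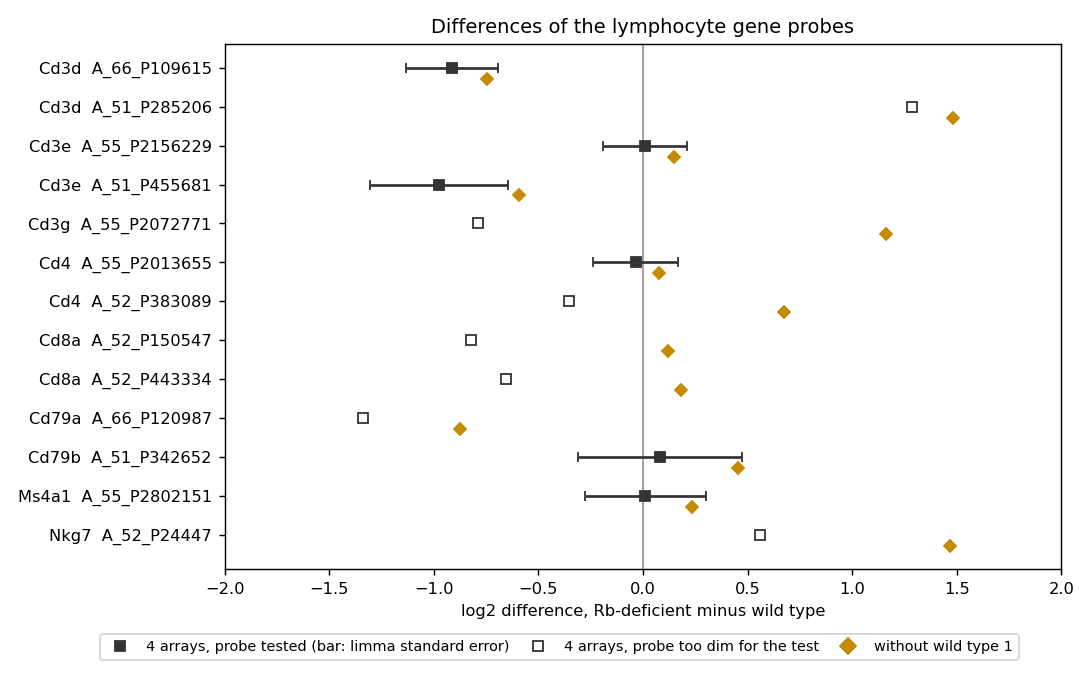
Log2 difference between Rb-deficient and wild type islets for each of the 13 probes, from all 4 arrays (squares, with the limma standard error for the 6 tested probes) and without wild type 1 (diamonds). Leaving out that array moves Cd3g, both Cd4 probes and both Cd8a probes from below 0 to above it, while the brighter Cd3d probe and the second Cd3e probe stay below 0. On the probes that stay below 0 the groups did not overlap, so leaving out an array could not change the sign.

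Wider marker lists were read in the same way. Differences and medians used the brightest probe of each gene. A gene counted as well above background on an array where any of its probes was marked. Of 18 other T cell genes, 17 were well above background on wild type 1 and 8, 10 and 12 on wild type 2 and Rb-deficient 1 and 2, and 5 were marked on wild type 1 alone. Of 16 other B cell genes the counts were 13, 9, 10 and 11, and of 16 other NK and cytotoxic genes 11, 7, 4 and 6, in the same order. In each list wild type 1 had the most genes with signal, as it had over all 45616 genes, 75.7% against 56.9% to 58.2%. All 15 macrophage genes were marked on every array.

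**Figure D3:**
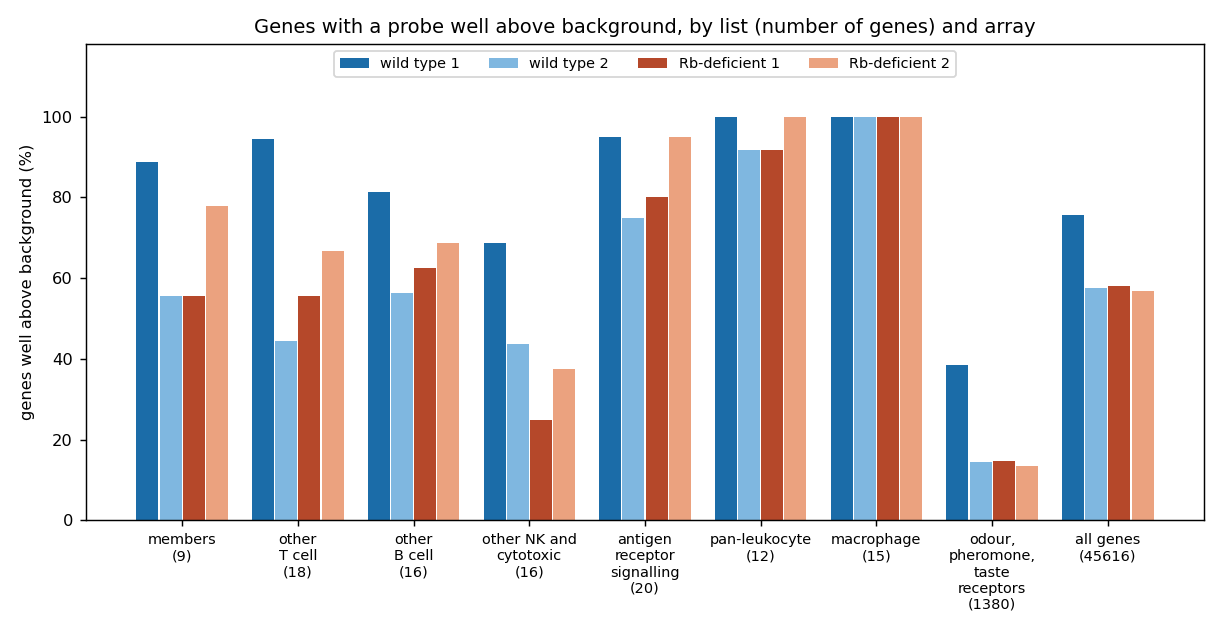
Percentage of the genes of each list with a probe well above background on each array, with the number of genes in brackets. Wild type 1 is highest for the 3 lymphocyte lists, for the odour, pheromone and taste receptor genes (38.6% against at most 14.7%) and for all genes, while all 15 macrophage genes are marked on each of the 4 arrays.

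No gene of the T, B or NK lists was called. Among 11 tested T cell genes 6 were higher and 5 lower, with a median difference of 0.039. Among 10 tested B cell genes 5 were higher and 5 lower, with a median of -0.079, and among 6 tested NK and cytotoxic genes 2 were higher and 4 lower, with a median of -0.33. The median over all genes tested was -0.068. Genes with an unadjusted p under 0.05 numbered 0, 2 and 1 in these lists, against 1493 of all 26378 genes tested. Both Rb-deficient arrays lay above both wild type arrays for 1, 4 and 2 tested genes, in the same order (15.3% of all genes). They lay below for 1, 3 and 2 (20.7% of all genes).

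The 4 other T cell genes with the highest signals are named. Cd247, the zeta chain that completes the T cell receptor complex, gave 2.45 and 2.09 in wild type and 1.93 and 1.89 in Rb-deficient islets. Both Rb-deficient values were below both wild type values. The Cd247 difference of -0.35 (standard error 0.21, limma adjusted p = 0.863) was -0.18 without wild type 1 and 0.084 when arrays were scaled to their medians. Lck, the kinase that phosphorylates the CD3 chains, gave -2.61 and -1.43 in wild type and -2.42 and -1.29 in Rb-deficient islets. The first array of each group was low for Lck and the second higher, so the groups overlapped, and the difference was 0.16 with wild type 1 and -0.43 without it. Cd6, a receptor that tunes T cell activation, differed by 0.18, and by 0.51 without wild type 1. Il7r, a receptor for the survival factor interleukin 7, differed by 0.38, and by 0.72 without wild type 1. The groups overlapped for both.

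The 4 B cell genes with the highest signals did not go one way. Jchain, the joining chain that links antibodies of plasma cells, gave -3.09 and -2.60 in wild type and -0.87 and 0.54 in Rb-deficient islets, 6.40-fold higher in the mean (log2 difference 2.68, standard error 0.57, limma adjusted p = 0.668). Blnk, an adaptor of the B cell receptor also present in macrophages, gave -0.96 and -0.94 in wild type and -0.29 and 0.83 in Rb-deficient islets, a difference of 1.22, and 1.21 without wild type 1. Cd72, a co-receptor of B cells that myeloid cells also carry, gave -1.79 and -1.34 in wild type and -1.30 and 0.37 in Rb-deficient islets, a difference of 1.10, and 0.87 without wild type 1. For these 3 genes both Rb-deficient arrays lay above both wild type arrays, which held for 4 of the 10 tested B cell genes (15.3% of all genes), while 3 of the 10 lay below (20.7% of all genes). Cd22, an inhibitory receptor of B cells, gave -0.76 and -1.25 in wild type and -1.02 and -1.69 in Rb-deficient islets, with overlapping groups. Its difference was -0.35, and -0.10 without wild type 1 and 0.089 with arrays scaled to their medians.

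The 4 NK and cytotoxic genes with the highest signals were likewise mixed. Ccl5, a chemokine of T and NK cells that macrophages also make, gave -2.75 and -2.05 in wild type and -1.41 and 0.65 in Rb-deficient islets, 4.04-fold higher in the mean (log2 difference 2.02, standard error 0.80, limma adjusted p = 0.863). Gzma, a granule protease of cytotoxic cells, gave -4.43 and -4.50 in wild type and -4.26 and -2.50 in Rb-deficient islets, a difference of 1.09, and 1.12 without wild type 1. Rb-deficient 1 was close to the wild type arrays for Gzma, and without Rb-deficient 2 the difference was 0.20. Prf1, perforin of cytotoxic granules, gave -0.39 and -0.92 in wild type and -1.02 and -1.17 in Rb-deficient islets, a difference of -0.44, and -0.18 without wild type 1. Both Rb-deficient values were below both wild type values for Prf1 and above them for Ccl5 and Gzma. Ctsw, a protease of cytotoxic cells, gave -2.85 and -3.75 in wild type and -4.11 and -3.55 in Rb-deficient islets, a difference of -0.53, and -0.083 without wild type 1.

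None of these 8 genes passed the adjustment. For Jchain the difference was 2.43 without wild type 1 and 1.97 without Rb-deficient 2, and for Ccl5 it was 1.67 and 0.99. Scaled to array medians, both passed (limma adjusted p = 4.23e-06 for Jchain and 0.000985 for Ccl5), while the highest adjusted p over the alternatives was 1.00 for each. Without Rb-deficient 2, Cd72 differed by 0.26 and Blnk by 0.66.

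**Figure D4:**
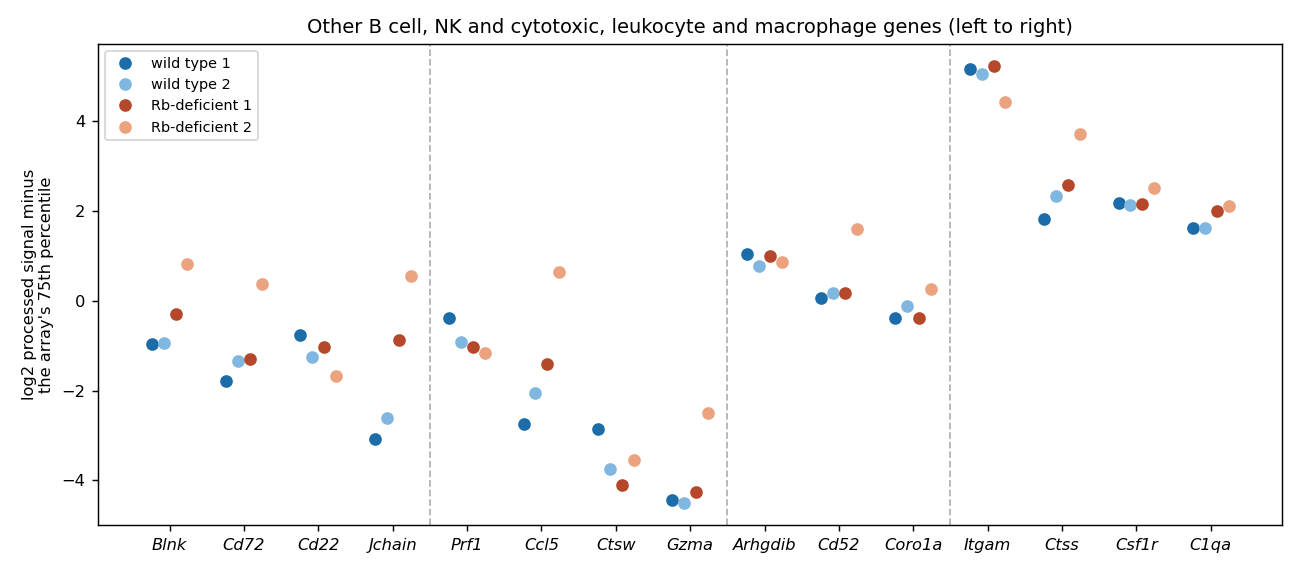
Signal on each array, in log2 units relative to the 75th percentile of that array, of the named genes of the B cell, NK and cytotoxic, leukocyte and macrophage lists, from left to right between the dashed lines. Rb-deficient 2 is the highest array for Blnk, Cd72, Jchain, Ccl5, Gzma, Cd52, Coro1a, Ctss, Csf1r and C1qa and the lowest for Cd22, Prf1 and Itgam.

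Of the 15 macrophage genes, 14 were higher and 1 lower in the Rb-deficient mean. Relative to the wild type mean, the median of the 15 macrophage genes was 0.32 on Rb-deficient 1 and 1.42 on Rb-deficient 2, and 8 of the 15 had both Rb-deficient arrays above both wild type arrays, against 15.3% of all genes tested. Ctss, a lysosomal protease of macrophages, gave 1.82 and 2.33 in wild type and 2.57 and 3.72 in Rb-deficient islets, a difference of 1.07, and 0.82 without wild type 1. C1qa, a complement chain made by macrophages, differed by 0.44 with and without wild type 1. Csf1r, the receptor for the macrophage growth factor, differed by 0.19, and by 0.21 without that array. Itgam, an integrin of myeloid cells, gave 5.15 and 5.05 in wild type and 5.23 and 4.43 in Rb-deficient islets. Its difference was -0.27, and -0.22 without wild type 1, 0.13 without Rb-deficient 2 and 0.17 with arrays scaled to their medians.

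Of the 11 tested leukocyte genes, 9 were higher and 2 lower in the Rb-deficient mean, with a median difference of 0.47. Both Rb-deficient arrays lay above both wild type arrays for 5 of the 11 and below them for 1. The shares of all genes tested were 15.3% and 20.7%. Relative to the wild type mean, the median of all 12 leukocyte genes was 0.074 on Rb-deficient 1 and 0.87 on Rb-deficient 2. Cd52 gave 0.063 and 0.16 in wild type and 0.17 and 1.59 in Rb-deficient islets. Its difference of 0.77 was 0.72 without wild type 1 and 0.057 without Rb-deficient 2. Arhgdib and Coro1a, regulators of the leukocyte cytoskeleton, differed by 0.020 and 0.19, with overlapping groups, and by 0.15 and 0.063 without wild type 1. None of the 15 tested macrophage and 11 tested leukocyte genes was called by limma, and 0 and 1 of them had an unadjusted p under 0.05. Of all 26378 genes tested, 1493 did.

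Relative to the wild type mean, the 9 lymphocyte genes had a median of 0.37 on wild type 1 and -0.37 on wild type 2. It was -0.24 on Rb-deficient 1 and 0.064 on Rb-deficient 2. The median of the other T cell genes was 0.50, -0.50, -0.46 and -0.30 in the same order. In both lists the Rb-deficient arrays thus lay above wild type 2 and below wild type 1. Summed on the linear scale, in units of the 75th percentile, the macrophage genes came to 52.8 and 53.2 in wild type and 60.7 and 64.3 in Rb-deficient islets. The brightest probe weighs most in this sum. That was Itgam, which gave 5.15 and 5.05 in wild type and 5.23 and 4.43 in Rb-deficient islets. It was the only macrophage gene lower in the Rb-deficient mean, while the median of the list was 0.32 and 1.42 on the Rb-deficient arrays. Because levels of different probes cannot be compared, the sum is a description only. Acinar genes, which mark exocrine tissue that islets can carry, had medians of -0.32 and -1.13 on the Rb-deficient arrays. The part of macrophages and acinar tissue in the values of Jchain, Ccl5, Gzma, Cd72 and Blnk was not tested.

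**Figure D5:**
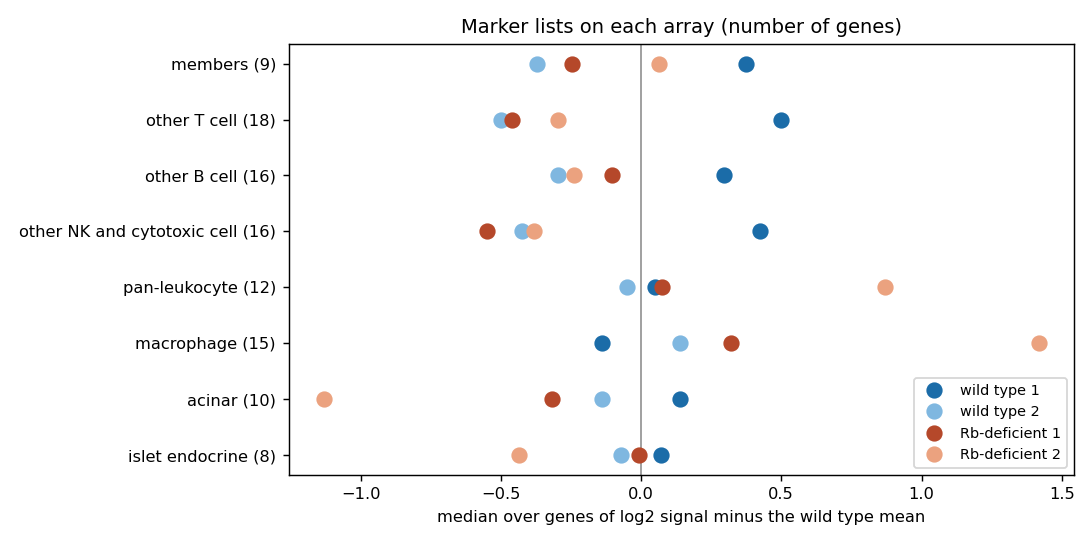
Median over the genes of each list of the log2 signal minus the wild type mean, one point per array, with the number of genes in brackets. On Rb-deficient 2 the macrophage list lies at 1.42 and the acinar list at -1.13, while the 9 lymphocyte genes (members) lie at 0.064. The members lie at 0.37 on wild type 1 and at -0.37 on wild type 2.

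The signalling genes downstream of the antigen receptors split evenly. Of 20 such genes 16 were tested, 8 were higher and 8 lower, and the median difference was -0.020. Both Rb-deficient arrays lay above both wild type arrays for 4 of the 16, Prkcb and Ptpn6 among them (15.3% of all genes). They lay below for 3, Lyn and Cd247 among them (20.7% of all genes). Lyn, a kinase that acts at the B cell receptor and in myeloid cells, gave 3.25 and 2.83 in wild type and 2.26 and 2.23 in Rb-deficient islets, 1.74-fold lower (log2 difference -0.80, limma adjusted p = 0.803), and the difference was -0.59 without wild type 1. Prkcb, a protein kinase C of B cell receptor signalling also known in beta cells, gave 2.75 and 3.04 in wild type and 3.44 and 3.22 in Rb-deficient islets, a difference of 0.44 (limma adjusted p = 0.863), and 0.29 without wild type 1. Ptpn6, a phosphatase that restrains receptor signalling, differed by 0.16, and by 0.13 without wild type 1. None of the 3 passed the adjustment.

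The genes whose signals over the 4 arrays were most like those of the brightest lymphocyte probes were found among 14997 named genes, by the root mean square distance of log2 values after each gene was centred. Nearest to Cd3e were Zbtb39 at 0.00995, Elovl7 at 0.0135 and Slx4ip at 0.0136, and 984 genes lay within 0.1. Nearest to Cd4 were Cyb561 at 0.00581, Zfp932 at 0.00681 and D2hgdh at 0.0123, and 1441 lay within 0.1. Both had many genes as near. Nearest to the brighter Cd3d probe were Tmem255a at 0.0356, Slc28a3 at 0.0515 and Mia at 0.0618, with 14 genes within 0.1. Likeness over 4 arrays is a description only.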

How the data were processed

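RNA of islets of 2 Pdx1-Cre and 2 Pdx1-Cre:Rbf/f mice was measured on 4 Agilent arrays labelled with Cy3. The deposited scanner files hold intensity per spot, read with Agilent Feature Extraction 12.0.3.1, per the file headers, as background-subtracted processed signal. A deposited intensity table of the series equalled that signal times 1 constant per array (2.44, 2.15, 2.49 and 1.74; column medians 220, 181, 188 and 157), so its scale was linear and uncentred; the origin of the constants is not known. It served as an alternative. All arrays shared 1 slide, so slide could not be a block. No spot was saturated.

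Accessions were matched to RefSeq (GRCm38.p6), naming 32994 of 56605 probes. Control spots and outlier spots (64 to 93 per array) were left out. The processed signal of the deposited scanner files was put on the log2 scale. Each array's 75th percentile, taken over spots other than controls, was subtracted, and spots of a probe were averaged. Groups came from the titles. Nothing but the count of mice says how they were bred, and p-values measure the spread between these mice. In the wild type group that spread also holds the differences in sex and in detection between its arrays.

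limma 3.58.1 in R 4.3.3 (lmFit, eBayes, two-sided) was used, with 2 residual degrees of freedom and 1.82 from the prior. An exact permutation test of 2 against 2 arrays cannot go below 0.333 and was not used. The number of arrays limits precision.

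The lymphocyte genes and the other lists were chosen with earlier results of these data known. From the T, B, NK and cytotoxic, signalling, leukocyte and macrophage lists the text names the 4 genes with the highest mean signal among those well above background on all arrays (Cd247 is in 2 lists); acinar genes are given as a list only. The values of 1 gene that this rule takes are not reported here. Alternatives were normexp, quantile or median scaling, other percentiles, filters and probe rules, the deposited table, a replicate block and leaving out each array. normexp used the median signal, because the files used hold no mean signal column.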

Additional observations from a re-analysis of the deposited data

How the results depend on the processing

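None of the 9 lymphocyte genes was called by limma under any of the alternatives. Genes called over the whole array numbered 0 in all but 2 of them: 480 with arrays scaled to their medians (234 higher and 246 lower in Rb-deficient islets, with the median of all genes moving from -0.068 to 0.37), and 4091 without wild type 2 (17 higher, 4074 lower), the range over left-out arrays being 0 to 4091. The cause was not tested. The brighter Cd3d probe stayed lower in all alternatives (-1.08 to -0.48), and Jchain and Ccl5 stayed higher, passing the threshold with median scaling only (3.12 and 2.45). The groups did not overlap on any of these probes, so leaving out an array could not change the sign. The filters and the replicate block left these differences unchanged by construction. The mean of the Cd3d probes held only the brighter one, because the second did not pass the filter.

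Differences near 0 changed sign. The brighter Cd3e probe came to -0.033 with quantile normalization, -0.014 with the 75th percentile of probes marked on all arrays, -0.48 as the mean of its probes, and -0.13 to 0.15 with an array left out. Cd4 came to 0.40 with median scaling and -0.15 to 0.076 with an array left out. Cd79b came to -0.29 to 0.45 and Ms4a1 to -0.23 to 0.25 with an array left out, and Ms4a1 to -0.017 with normexp and -0.011 with that percentile. With median scaling Cd247 came to 0.084, Cd22 to 0.089 and Itgam to 0.17. Cd6 came to -0.021 with normexp, Arhgdib to -0.015 with quantile normalization and -0.0035 with that percentile, and Csf1r to -0.059 as the mean of its probes. With an array left out, Lck ranged from -0.43 to 0.75, Cd6 from -0.16 to 0.51, Arhgdib from -0.11 to 0.15, Coro1a from -0.14 to 0.52 and Itgam from -0.66 to 0.13.

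With the replicate block, 0 genes were called and 3160 had an unadjusted p under 0.05, and Cd3d had a limma adjusted p = 0.380. Deviations of same-numbered arrays correlated at 0.295, with only 2 pairs, so the numbers are not taken to pair the mice. Counting each probe once in the percentile was chosen after seeing the data and changed no call. Dim signals limit the rest: 7 of the 13 probes could not be tested.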
